A study of Mus musculus with 9 samples.

Results

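The acyl-CoA thioesterase genes Acot1, Acot2, Acot7, Acot8, Acot9, Acot10, Acot11 and Acot13 were followed across 3 culture conditions of 4T1, a carcinoma cell line from the mouse mammary gland. They are a named list of family members, 8 of the 24421 genes in the count table, and the rule that names them uses no measured value, though earlier results of these data were known when they were listed. The 9 RNA-seq libraries, 3 per condition, came from unmodified 4T1 cells kept for 5 days as 3D cultures on soft agar without added palmitate, as 3D cultures with 75 µM palmitate, or as 2D monolayers with 75 µM palmitate. Per the study's methods all cultures had serum-containing medium, palmitate was bound to albumin, and cultures without added palmitate got the albumin vehicle, so none was free of fatty acids. The design asks how 3D differed from 2D culture and what palmitate changed in 3D, and both questions use the 3D libraries with palmitate. There was no 2D culture without added palmitate among the libraries analysed here. All results come from 1 cell line, and the labels do not say whether the libraries of a condition were separate cultures, so the p-values measure only the spread between these libraries, which may be technical.

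Acyl-CoA thioesterases cut the bond between a fatty acid and coenzyme A. They work against the acyl-CoA synthetases, which make that bond when a fatty acid such as palmitate enters the cell, and so set how much acyl-CoA stays available for oxidation, lipid synthesis and protein acylation. The enzymes divide by fold and by compartment. Acot1 is cytosolic and Acot2 is its counterpart in the mitochondrial matrix, and both genes are known targets of the fatty acid receptor PPARα in liver and heart. Acot7 is the main cytosolic long-chain enzyme of brain, Acot8 is peroxisomal, Acot9 and Acot10 are mitochondrial, and Acot11 and Acot13 act on long-chain acyl-CoA in brown fat, liver and other oxidative tissues.

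The genes lie on separate chromosomes except for Acot1 with Acot2 and Acot7 with Acot11. In the GRCm38 mouse genome with the GENCODE M21 annotation, Acot2 occupied chr12:83987861-83993873 and Acot1 chr12:84009490-84018371, both on the plus strand with 3 exons each. Acot7 was at chr4:152178134-152271855 on the plus strand and Acot11 at chr4:106744555-106804998 on the minus strand. Acot8 was at chr2:164792765-164804882 on the minus strand, where it overlapped Snx21 on the plus strand. Acot9 was at chrX:155262443-155297654 on the plus strand with 15 exons. Acot10, at chr15:20665214-20666750 on the minus strand, had 1 exon and lay within Cdh12 and the transcript Gm49685, both on the plus strand. Acot13 was at chr13:24817948-24831540 on the minus strand.

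Both similar pairs are shown in sequence, because a read of 50 bases can be placed on 1 gene of a pair only where the genes differ. The coding sequences of Acot1 and Acot2 were identical at 95.6% of 1236 aligned bases, with 55 differences. Below are the 60 coding bases with the most differences, in exon 3 of both genes, at chr12:84016942-84017001 for Acot1 and chr12:83992664-83992723 for Acot2 on the plus strand. Capitals mark the 13 bases that differ.
Acot1: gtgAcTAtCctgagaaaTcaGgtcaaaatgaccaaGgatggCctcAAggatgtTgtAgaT
Acot2: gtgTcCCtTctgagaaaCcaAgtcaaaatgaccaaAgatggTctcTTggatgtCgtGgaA
A few bases further on, from coding base 887 to 1159 of Acot1, the genes were identical for 273 bases, the longest such run. It begins with these 60 bases at chr12:84017006 and no read within it can be told apart.
Acot1 and Acot2: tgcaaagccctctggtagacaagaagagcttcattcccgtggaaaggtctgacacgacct
The coding sequences of Acot9 and Acot10 were identical at 97.2% of 1317 bases, with 37 differences. Their 60 most different coding bases, from coding base 113 to 172, held 6 differences, shown in capitals. They lie across exons 2 to 4 of Acot9 and in the single exon of Acot10.
Acot9: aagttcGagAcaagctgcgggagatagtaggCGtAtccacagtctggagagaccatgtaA
Acot10: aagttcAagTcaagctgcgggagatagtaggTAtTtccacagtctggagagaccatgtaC

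Counted over the main transcript of each gene, 33.6% of the windows of 50 bases in Acot1 and 27.7% of those in Acot2 also occurred in a transcript of another gene, on either strand. Acot1 shared 23.7% of its windows with Acot2, and Acot2 shared 24.5% with Acot1. The share with any other gene was 20.2% for Acot9 and 43.2% for Acot10. Of all its windows, Acot10 shared 25.3% with the overlapping Gm49685 on the other strand and 23.1% with Acot9, some of them with both. The share with any other gene was 17.7% for Acot8, all with Snx21 on the other strand, 19.0% for Acot11, and 0 for Acot7 and Acot13. Whether reads were counted by strand is not given in the sources used here, nor how reads with several positions were treated. The values of Acot1, Acot2, Acot9 and Acot10 are therefore less certain than those of Acot7 and Acot13, as are those of Acot8 and Acot11 through their overlapping genes.

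The libraries held 6595514 to 31177756 counts, the smallest being replicate 3 of the 3D cultures with palmitate. Levels are given as CPM, read counts scaled to a common library size with edgeR's TMM factors. The ribosomal RNA precursor Rn45s took 1.77% to 2.77% of the counts in 3D without added palmitate, 1.81% to 5.38% in 3D with palmitate and 2.46% to 3.49% in 2D. The carcinoma markers Krt8, Krt18, Epcam and Cdh1 were high, as the label of a mammary carcinoma line implies. Their summed level was 2963 to 3174 CPM in 2D and 4239.8 to 4356 in 3D. Of the 4, 3 were called higher in 3D with palmitate than in 2D, beside 34.5% of all genes tested. Of markers of other cell types, the leukocyte sum, nearly all of it Cd68 with Cd3e at 0 in all 9 libraries, was 24.3 to 27.8 CPM in 2D against 8.42 to 11.4 in 3D with palmitate and 6.78 to 8.83 without. Ptprc, the other leukocyte marker, went against Cd68, at 0.258 to 0.613 CPM in 3D with palmitate and at most 0.165 in 2D. The fibroblast sum, led by Pdgfra, was 31.7 to 33.6 CPM in 2D and 91.6 to 111 in all 3D libraries. Col1a1 went the other way, from 2.18 CPM in 2D to 0.845 in 3D with palmitate. Its log2 fold change was -1.06 with an adjusted p of 0.0139 in edgeR's quasi-likelihood test. It rests on 44, 4 and 4 counts in 3D with palmitate. The call was lost without replicate 2 of 3D with palmitate and without replicate 2 of 2D. Dcn, also a fibroblast marker, had at most 1 count in a library. Endothelial markers stayed at or below 0.579 CPM. Hepatocyte and adipocyte markers were at 0 counts in every library with palmitate and at no more than 0.108 CPM in those without. The part of these marker differences in the results on 3D against 2D culture was not tested. In bulk RNA, fewer cells of a type and less RNA per cell cannot be told apart.

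Per transcript length, Acot7 was the most abundant member in all 3 conditions. Its mean was 88.2 ± 3.59 CPM per kb (SD, n = 3) in 3D without added palmitate, 97.1 ± 6.97 in 3D with palmitate and 119 ± 5.64 in 2D. Acot9 came next in 3D, at 30.9 ± 1.03 CPM per kb without and 31.5 ± 3.18 with palmitate, followed by Acot13 at 18.9 ± 1.75 and 22.7 ± 2.42. In 2D this order was turned, with Acot13 at 57.2 ± 5.56 CPM per kb and Acot9 at 50.5 ± 0.460, and the libraries of the neighbours did not overlap. Acot8 followed at 7.77 to 8.23 CPM per kb, then Acot2, while Acot1 and Acot10 lay between 1.08 and 2.08. Neighbours overlapped in their libraries for Acot10 and Acot1 in 3D without added palmitate and for Acot8 and Acot2 in 2D, so these were not ordered beyond their spread.

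**Figure D1:**
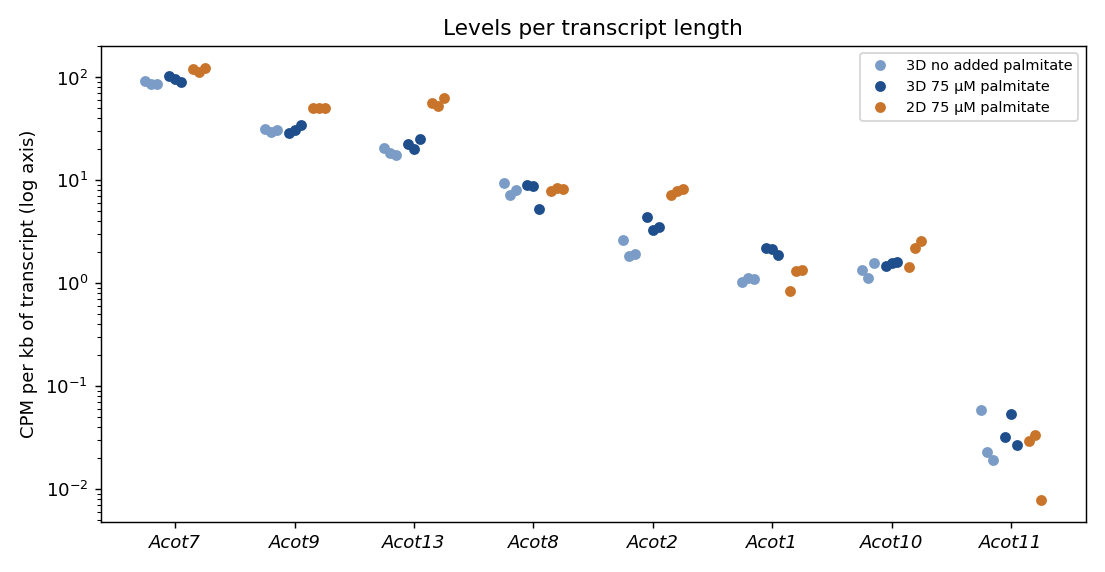
Level of each gene per kb of its main transcript (log axis, CPM per kb), 1 point per library, for the 3 culture conditions. Acot7 is on top in every condition, Acot13 lies above Acot9 only in 2D, and Acot11 lies far below the rest.

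Acot7, Acot9 and Acot13 made up most of the family's summed level per length. The sum over the 8 genes was 151 ± 7.48 CPM per kb in 3D without added palmitate, 166 ± 5.70 in 3D with palmitate and 246 ± 11.9 in 2D, with no overlap between any of the conditions. Acot7 took 58.5% of this sum in 3D without added palmitate, 58.3% in 3D with palmitate and 48.4% in 2D. Acot13 took 12.5%, 13.6% and 23.2% in the same order, whereas the share of Acot9 stayed between 19.0% and 20.5%. Acot2 took 1.40%, 2.23% and 3.17%, and Acot1 0.722%, 1.25% and 0.473%.

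Genes were called at a Benjamini-Hochberg adjusted p-value under 0.05 in edgeR's quasi-likelihood test over 12575 genes with enough counts, to which 7 of the 8 members belonged. Acot11 did not pass the filter. Of the 7, 4 fell in 3D compared with 2D culture in the presence of palmitate (Acot2, Acot7, Acot9 and Acot13), 1 rose (Acot1), and Acot8 and Acot10 were not called. Among all genes tested, 68.3% were called in this comparison, 34.5% higher and 33.9% lower in 3D, and for 69.4% the 3 libraries of one condition lay wholly above those of the other. A member being called in this comparison is thus close to the background. The median log2 fold change of the members was -0.49, beside 0.01 over all genes tested.

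In 3D culture with against without added palmitate, 2 of the 7 rose, Acot1 and Acot2, and none was called lower. Here the background was low, with 2.19% of all genes tested called, 1.38% higher and 0.811% lower with palmitate, and 18.6% without overlap between the conditions. The median log2 fold change was 0.17 for the members and 0.01 for all genes. The count of 0 lower members in edgeR's quasi-likelihood test was also 0 at an unadjusted p-value under 0.05 and in DESeq2. Both comparisons share the 3D libraries with palmitate, so a high or low value there enters both.

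**Figure D2:**
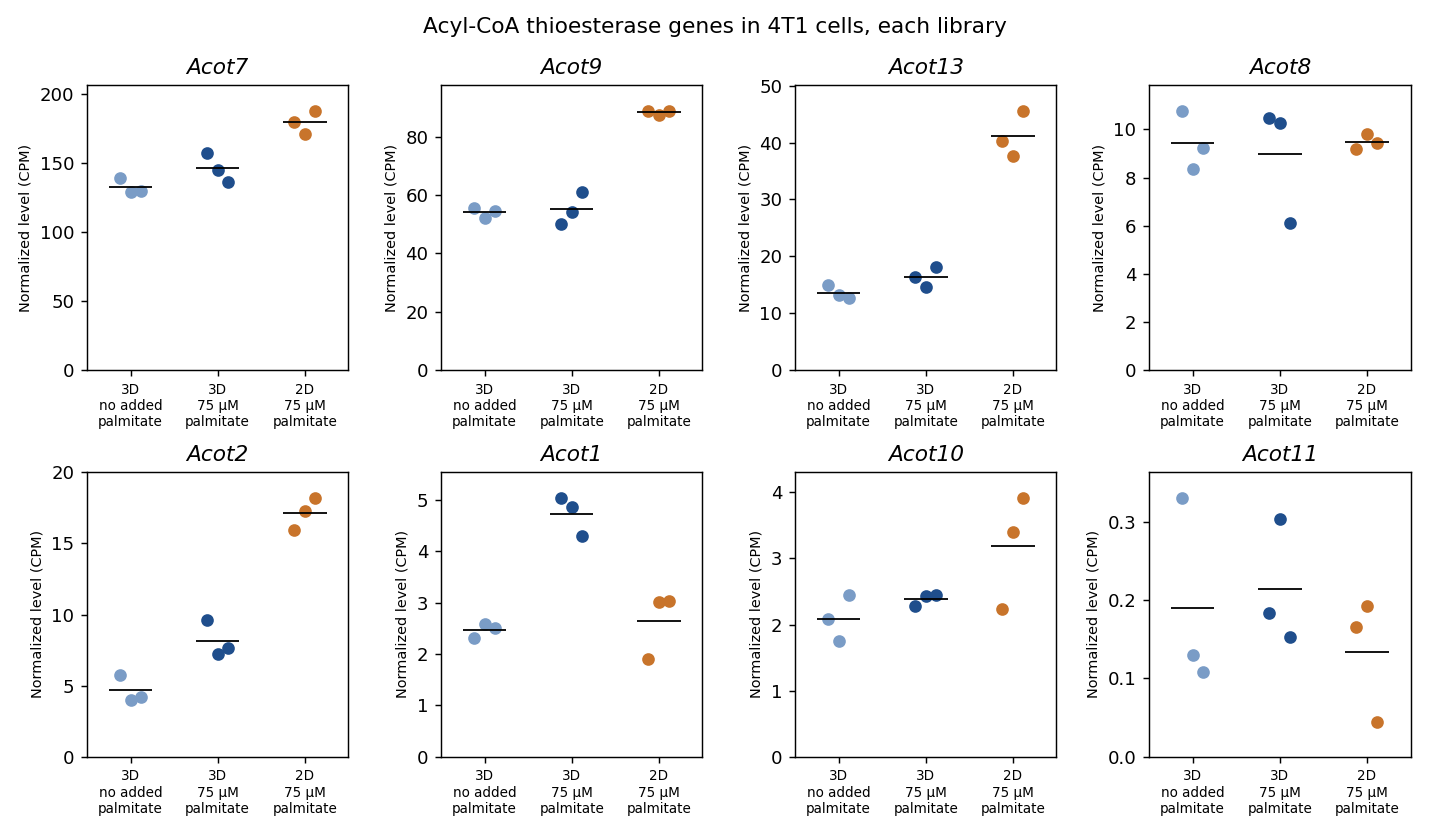
Normalized level (CPM, linear axes from 0, a scale for each gene) of the 8 genes in every library, with the mean of each condition as a line. Acot1 is highest in 3D with palmitate, whereas Acot2, Acot7, Acot9 and Acot13 are highest in 2D.

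Acot1, the cytosolic enzyme, had its highest level in 3D with palmitate. Its level was 2.31, 2.58 and 2.50 CPM in the libraries of 3D without added palmitate, 5.04, 4.86 and 4.29 in 3D with palmitate, and 1.90, 3.01 and 3.03 in 2D. All 3 libraries of 3D with palmitate thus lay above the other 6, and the 2 other conditions overlapped. The level in 3D with palmitate was 1.75-fold the 2D level. This was a log2 fold change of 0.80 ± 0.171 (SE) with an adjusted p of 0.000749 in edgeR's quasi-likelihood test. In 3D it was 1.97-fold higher with palmitate than without, a log2 fold change of 0.98 ± 0.179 with an adjusted p of 0.0125 in the same test, the 78th smallest p of 12575. These levels rest on 23 to 137 counts per library.

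Acot2, the mitochondrial counterpart, had its lowest level in 3D without added palmitate and its highest in 2D. The libraries gave 5.76, 4.01 and 4.23 CPM in 3D without added palmitate, 9.64, 7.22 and 7.66 in 3D with palmitate, and 16.0, 17.3 and 18.2 in 2D. No pair of conditions overlapped. Compared with 2D, the level in 3D with palmitate was 2.04-fold lower, a log2 fold change of -1.03 ± 0.136 with an adjusted p of 9.80e-06 in edgeR's quasi-likelihood test. Palmitate in 3D raised it 1.79-fold, a log2 fold change of 0.84 ± 0.159 with an adjusted p of 0.0156 in the same test. This was the 89th smallest p of 12575.

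The calls of Acot1 and Acot2 with palmitate were each lost in several fits that left out 1 library. The size of the change moved little for Acot1 and more for Acot2. For Acot1 the call was lost in 5 of the 9 fits that left out 1 library, namely each of the 3 libraries without palmitate and replicates 1 and 2 with it. Its log2 fold change over the 9 fits lay between 0.92 and 1.02 and its adjusted p between 0.00254 and 0.0673. For Acot2 the call was lost without replicate 2 or 3 of the cultures without palmitate and without replicate 1 of those with it. Its log2 fold change lay between 0.64 and 1.03 and its adjusted p between 0.00238 and 0.0908. With the share of Rn45s as a covariate, the log2 fold changes were 1.00 for Acot1 and 0.96 for Acot2 at adjusted p-values of 0.0980 and 0.0545 in the quasi-likelihood test, so neither was called. With the counts of the pair summed as a single gene, the log2 fold change with palmitate was 0.88 with an adjusted p of 0.00225.

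**Figure D3:**
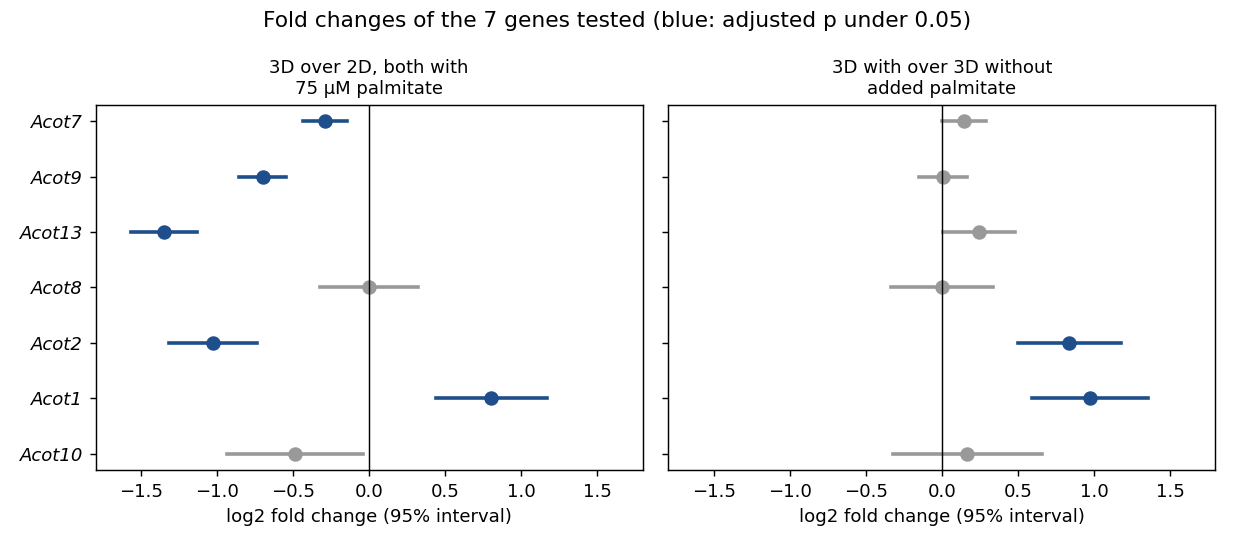
Log2 fold change with its 95% interval for the 7 genes tested, 3D over 2D on the left and palmitate over no added palmitate in 3D on the right. Blue marks an adjusted p under 0.05. Acot1 lies right of 0 and Acot2 left of 0 in the left panel, and both lie right of 0 in the right panel.

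Because similar genes can exchange reads, the share of Acot1 in the counts of Acot1 and Acot2 together was taken in every library, with exact 95% binomial intervals that cover counting error only. In 2D it was 10.6% (6.87 to 15.5), 14.8% (12.2 to 17.8) and 14.3% (11.2 to 17.7). In 3D with palmitate it was 34.3% (29.7 to 39.2), 40.3% (32.6 to 48.3) and 35.9% (25.3 to 47.6), and in 3D without added palmitate 28.7% (22.0 to 36.1), 39.2% (29.7 to 49.4) and 37.1% (28.6 to 46.2). The share in each of the 6 libraries of 3D culture thus exceeded that in each of the 3 from 2D.

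The mean share was 36.8% ± 3.07 (SD, n = 3) in 3D with palmitate and 13.2% ± 2.27 in 2D, a difference of 23.6 percentage points. The two-sided exact permutation test gave p = 0.1, the smallest that 3 against 3 libraries allow. Palmitate in 3D moved the share by 1.84 points from 35.0% ± 5.59, with overlap between the conditions and an exact permutation p of 0.8. Acot1 and Acot2 differed in opposite directions between 3D with palmitate and 2D. In 3D without added palmitate, Acot1 overlapped 2D, at a mean of 2.46 against 2.65 CPM. Acot2 was lower there than in 2D, at 4.67 against 17.2 CPM. The mix of the pair differed between 3D with and without palmitate by less than the spread of the libraries. The summed counts of the pair fell in 3D compared with 2D, with a log2 fold change of -0.59 and an adjusted p of 0.000278 in the quasi-likelihood test.

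**Figure D4:**
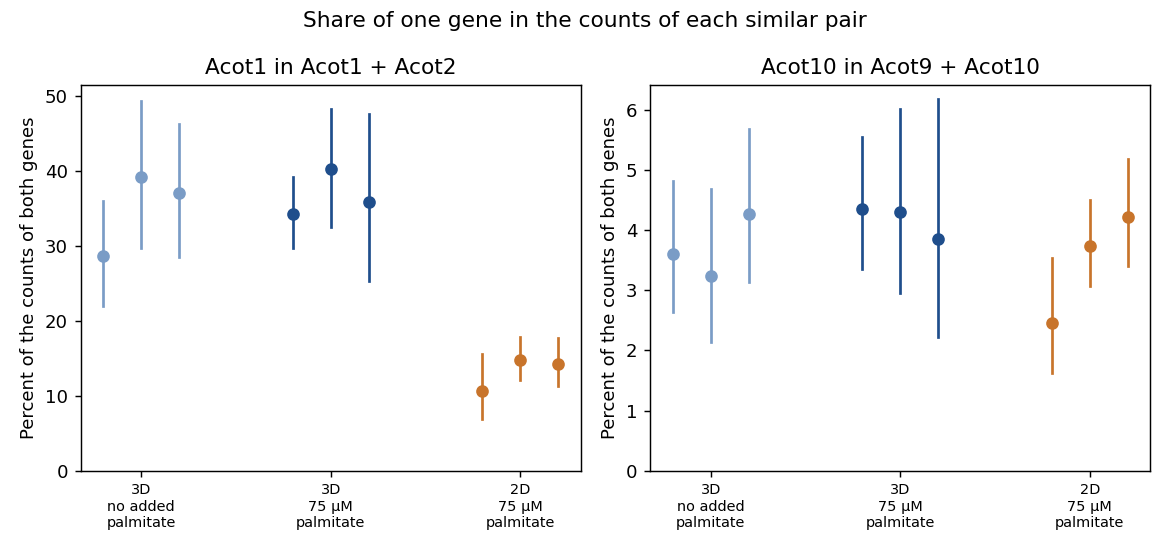
Share of Acot1 in the counts of Acot1 and Acot2 (left) and of Acot10 in the counts of Acot9 and Acot10 (right), in percent, 1 point per library with its exact 95% binomial interval. The 3 libraries from 2D lie between 10.6% and 14.8% for Acot1, below all 6 libraries from 3D, and the conditions overlap for Acot10.

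The promoters of this pair are shown because their coding parts are so alike while their levels diverged between 3D with palmitate and 2D. The sequences are the 250 bases before the RefSeq start of each gene on GRCm38.p6, plus strand, at chr12:84009252-84009501 for Acot1 and chr12:83987611-83987860 for Acot2. The last bases of the Acot1 window are already part of the transcript that GENCODE annotates. Capitals mark CCAAT, a common promoter box, on either strand (ATTGG on the other).
Acot1: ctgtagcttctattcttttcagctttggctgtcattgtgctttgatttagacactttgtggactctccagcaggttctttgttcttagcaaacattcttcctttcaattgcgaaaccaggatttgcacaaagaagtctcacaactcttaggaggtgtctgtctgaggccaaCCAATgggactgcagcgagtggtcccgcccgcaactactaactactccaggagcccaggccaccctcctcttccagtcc
Acot2: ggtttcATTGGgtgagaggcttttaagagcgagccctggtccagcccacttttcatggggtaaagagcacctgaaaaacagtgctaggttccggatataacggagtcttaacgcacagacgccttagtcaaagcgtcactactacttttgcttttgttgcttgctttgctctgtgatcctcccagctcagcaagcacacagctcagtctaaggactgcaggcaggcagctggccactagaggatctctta
The longest run common to both on the same strand was 9 bases. CCAAT occurred once in each, beginning 79 bases before the start in Acot1 and 244 bases before it on the other strand in Acot2, and 33.9% of 32851 mouse promoters of this length held it. AGGTCA, the core motif of nuclear receptors such as the PPARs, was in neither on either strand and in 14.0% of all promoters. TATAAA was in neither and in 12.4% of all. The best match to a direct repeat of AGGTCA with 1 base between had 4 mismatches in Acot1 and 3 in Acot2, and matches at least as close were in 74.5% and 21.3% of all promoters. Such letter matches describe these windows and say nothing of what binds there.

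Acot7, the cytosolic long-chain enzyme and the most abundant member, was moderately lower in 3D. Its level was 139, 129 and 130 CPM in 3D without added palmitate, 157, 145 and 136 in 3D with palmitate, and 180, 171 and 188 in 2D. The 2D libraries lay above all others, whereas the 3D conditions overlapped. The level in 3D with palmitate was 1.22-fold lower than in 2D (log2 fold change -0.29 ± 0.0682, adjusted p = 0.00155, quasi-likelihood test), and with the trends of each library with GC content and transcript length removed it was -0.14 with an adjusted p of 0.0114. The log2 fold change with palmitate in 3D was 0.14, with a 95% interval from -0.00 to 0.29 and an adjusted p of 0.297 in edgeR's test.

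Acot9, a mitochondrial enzyme, was nearly constant in 2D at 89.0, 87.5 and 88.9 CPM. In 3D it was lower, at 55.6, 52.1 and 54.7 CPM without added palmitate and 50.1, 54.2 and 61.1 with palmitate. The 2D libraries were above all others and the 3D conditions overlapped. Against 2D the level was 1.62-fold lower (log2 fold change -0.70 ± 0.0722, adjusted p = 7.92e-07, quasi-likelihood test). Palmitate in 3D gave a log2 fold change of 0.01, with a 95% interval from -0.15 to 0.17 and an adjusted p of 0.971 in edgeR's test, and the sign of this value changed with the processing.

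Acot10, the copy of Acot9 without introns, was counted at a much lower level. It was at 2.08, 1.74 and 2.44 CPM in 3D without added palmitate, 2.28, 2.43 and 2.45 in 3D with palmitate, and 2.23, 3.40 and 3.92 in 2D. Replicate 1 of 2D lay below all 3 libraries of 3D with palmitate and the other two above them. Against 2D the log2 fold change was -0.49 ± 0.209 with an adjusted p of 0.0513 in edgeR's quasi-likelihood test. Without replicate 1 of 2D it was -0.63 with an adjusted p of 0.0112. With all libraries it also passed, at adjusted p-values of 0.0332 to 0.0490 in that test, with library totals, no filter or a stricter filter, so its call lies at the threshold. With palmitate in 3D the log2 fold change was 0.17 with an adjusted p of 0.771 and a 95% interval from -0.32 to 0.66.

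Acot10 took 3.71% ± 0.523 (SD, n = 3) of the counts of Acot9 and Acot10 in 3D without added palmitate, 4.17% ± 0.274 in 3D with palmitate and 3.47% ± 0.918 in 2D. The exact permutation p was 0.2 for either comparison, and the conditions overlapped. Its counts, 16 to 106 per library, were 2.45% to 4.36% of those of the pair, so a small part of the reads of Acot9 placed on Acot10 could make up much of them, which was not tested.

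Acot13, a small enzyme of the mitochondria and the cytosol, had the largest fold change between 3D and 2D of the members tested. The libraries gave 15.0, 13.2 and 12.6 CPM in 3D without added palmitate, 16.4, 14.6 and 18.1 in 3D with palmitate, and 40.4, 37.7 and 45.6 in 2D. Every 2D library lay far above every 3D library. The level in 3D with palmitate was 2.55-fold lower than in 2D (log2 fold change -1.35 ± 0.103, adjusted p = 3.27e-08, quasi-likelihood test). Over 19 alternative fits this log2 fold change lay between -1.42 and -1.05. Palmitate in 3D gave a log2 fold change of 0.24, with a 95% interval from 0.00 to 0.48 and an adjusted p of 0.284 in edgeR's test, and the conditions overlapped. No window of its transcript was shared with another gene.

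Acot8, the peroxisomal enzyme, gave no detectable difference in either comparison. It was at 10.8, 8.34 and 9.22 CPM in 3D without added palmitate, 10.5, 10.3 and 6.13 in 3D with palmitate, and 9.18, 9.80 and 9.45 in 2D. The low value belongs to the smallest library and rests on 40 counts. The log2 fold change against 2D was -0.00 with a 95% interval from -0.33 to 0.32 and an adjusted p of 0.987 in edgeR's quasi-likelihood test. For palmitate in 3D it was -0.00, with an interval from -0.33 to 0.33 and an adjusted p of 0.999. Without the smallest library the values were 0.12 and 0.13.

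Acot11 was at the limit of detection. It had 7, 2 and 2 counts in 3D without added palmitate, 5, 4 and 1 in 3D with palmitate, and 2, 6 and 1 in 2D. Its level was between 0.0446 and 0.331 CPM, the conditions overlapped in both comparisons, and no difference was detectable at this depth.

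The other acyl-CoA thioesterases were a list of 10 genes, of which 3 had enough counts. Hibch, which releases hydroxyisobutyrate in valine breakdown, fell in 3D compared with 2D (log2 fold change -0.60), as did the mitochondrial enzyme Them4 (-0.77). Of all genes tested, 2.19% were called with palmitate in 3D. The number called among these 3 was 0 in edgeR's quasi-likelihood test, at an unadjusted p under 0.05 and in DESeq2. Acot6, of the same gene cluster as Acot1 and Acot2, had log2 fold changes of 0.50 against 2D and 0.42 with palmitate, at adjusted p-values of 0.121 and 0.474 in that test. The median log2 fold change of the list was -0.60 against 2D and 0.11 with palmitate.

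The acyl-CoA synthetases, which catalyse the opposite step, were a list of 23 genes with 14 tested. In 3D against 2D, 6 rose and 4 fell, close to the 68.3% called among all genes tested, and the median log2 fold change was 0.12. Acsl4, which prefers polyunsaturated fatty acids such as arachidonate, rose from 237 ± 18.3 to 884 ± 177 CPM (log2 fold change 1.90), Acsbg1 from 103 ± 4.34 to 200 ± 20.1 CPM (0.96) and the transporter Slc27a4 from 15.9 ± 0.378 to 24.1 ± 1.73 CPM (0.61). Of all genes tested, 1.38% were called higher and 0.811% lower with palmitate in 3D. Palmitate raised 1 of the 14 and lowered 0, also at an unadjusted p under 0.05 and in DESeq2, with a median of -0.02. This was Acsbg1, a very long-chain enzyme, with a log2 fold change of 0.43 and an adjusted p of 0.00770 in edgeR's quasi-likelihood test. The call was lost without replicate 3 of 3D without added palmitate and without replicate 2 of 3D with it, and with Rn45s as a covariate. Without replicate 3 of 3D with palmitate, 2 synthetases were called lower.

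Genes of acyl-CoA binding and of the making and breaking of coenzyme A were a list of 17, of which 16 were tested. In 3D against 2D, 3 rose and 9 fell, beside 34.5% higher and 33.9% lower among all genes tested, with a median log2 fold change of -0.38. Nudt19, a peroxisomal hydrolase of coenzyme A, fell by 0.88 on the log2 scale, and Dbi, the main acyl-CoA binding protein, fell by 0.75. Pank3, a pantothenate kinase of coenzyme A synthesis, rose by 1.11. With palmitate in 3D, 0 of the 16 were called by edgeR's quasi-likelihood test and 0 by DESeq2, beside 2.19% of all genes tested. The median log2 fold change was 0.05, and 3 were higher at an unadjusted p under 0.05. The gene nearest to a call there was Nudt19, with a log2 fold change of 0.32 and an adjusted p of 0.0566 in edgeR's quasi-likelihood test. Without replicate 3 of 3D with palmitate, 3 of the list were called higher and 1 lower.

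The fatty acid genes known to respond to PPARs were a list of 26, of which 17 were tested. This list is the background for Acot1 and Acot2, and its direction with palmitate was already known when it was written. In 3D against 2D, 7 rose and 7 fell, beside 68.3% called among all genes tested, with a median log2 fold change of 0.16. The carnitine palmitoyltransferase Cpt1a rose by 1.94 and the receptor gene Ppard by 0.94. With palmitate in 3D, 7 of the 17 rose and 0 fell in edgeR's quasi-likelihood test and in DESeq2, with 8 higher and 0 lower at an unadjusted p under 0.05 and a median of 0.17, beside 1.38% higher among all genes tested. The 7 became 2 with Rn45s as a covariate, 3 with the replicate block, 3 with only the 2 conditions compared and 4 with library totals. They became 2 to 5 when any library but replicate 3 of 3D with palmitate was left out, and 8 without that one. Plin2, a coat protein of lipid droplets, rose by 1.03, Angptl4, a secreted inhibitor of lipoprotein lipase, by 2.64 and Cpt1a by 0.36. The value of Angptl4 rests on 7 to 10 counts per library in 3D without added palmitate and 17 to 80 with it.

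Set beside these genes, Acot1 and Plin2 had similar log2 fold changes with palmitate (0.98 ± 0.179 and 1.03 ± 0.0630), and the level of Acot1 was much lower, so its error was larger. Against 2D they lay on different sides of 0. Plin2 fell by 0.62 on the log2 scale and Angptl4 fell by 0.93, as Acot2 did by 1.03, whereas Cpt1a and Acot1 rose. Of the genes tested, those whose log2 CPM followed Acot1 most closely over the 9 libraries were Acadvl, Dpp3 and Slc35b1, with Pearson's r of 0.947, 0.936 and 0.933. Those nearest to Acot2 were Ppp5c, Rusc2 and Tbrg1, with r of 0.990, 0.989 and 0.989. These r are descriptions, since the 9 libraries form 3 conditions and the genes were picked for their likeness.

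**Figure D5:**
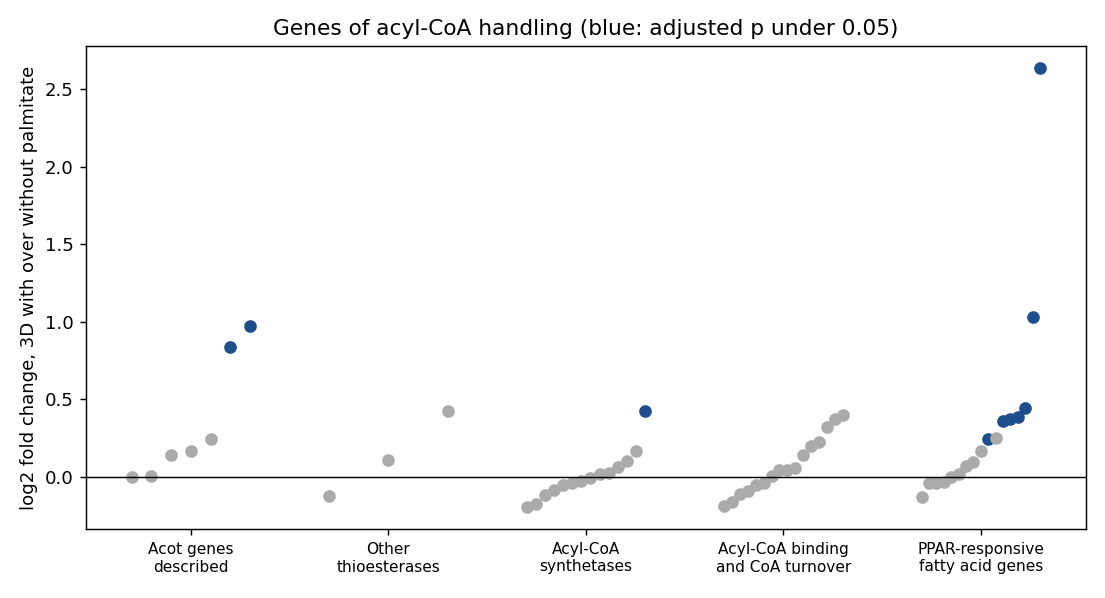
Log2 fold change with palmitate in 3D for the 7 Acot genes tested and for the tested genes of the 4 lists, each list in ascending order, with blue for an adjusted p under 0.05. The called genes are Acot1, Acot2, 1 synthetase (Acsbg1) and 7 PPAR-responsive genes, all above 0.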

How the data were processed

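RNA-seq libraries of 4T1 cells, 3 per condition, were grouped by the sample labels. The table the authors deposited holds raw counts of reads for each gene, not normalized. Per the study's methods they used a stranded poly(A) kit and single-end reads of 50 bases, checked with FastQC 0.11.9, aligned to GRCm38 with HISAT2 2.1.0 and counted with HTSeq. The annotation release, the strand setting and the treatment of reads with several positions are not given in the sources used here.

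The counts were tested with edgeR 4.0.16 under R 4.3.3. Genes were filtered with filterByExpr by condition, scaled by TMM, and all 9 libraries entered one quasi-likelihood fit with Benjamini-Hochberg adjustment over 12575 genes at a threshold of 0.05. SE was taken as the absolute log2 fold change over the root of its F value. Shares were compared with exact permutation tests. Shared windows of 50 bases, coding identity and transcript lengths came from GENCODE M21, and promoters from RefSeq (7 of the 8 members matched, not Acot13). The procedure was tested on simulated data. Total counts of 6595514 to 31177756 limit the precision of members with under 100 counts in a library (Acot1, Acot2, Acot8, Acot10, Acot11). Same-condition libraries differed beyond sampling noise (chi-square per gene 3.90 to 19.7).

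The members and lists were chosen with earlier results of these data known. Every member is named, and of each list the 3 called genes with the smallest p in each comparison, except 1 gene that is not reported here. Genes that were named for being nearest to a call, or set beside Plin2, were chosen after their values were seen, as was Acot6. Alternatives were scaling by RLE or library totals, other filters, the 2 compared conditions alone, a replicate block, DESeq2 1.42.0, Rn45s as a covariate, summed counts of similar genes, each library left out, and, added after seeing the data, removal of trends with GC content and length.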

Additional observations from a re-analysis of the deposited data

How the results depend on the processing

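Over 19 alternatives, the calls of Acot2, Acot7, Acot9 and Acot13 between 3D and 2D held their direction in all, and that of Acot1 in 18. The exception was the sum of Acot1 with Acot2, at -0.59, which by its construction follows the more abundant Acot2. Between 4 and 6 members were called there, the 4 with the pairs summed, which leaves fewer members to count. Acot10 crossed the threshold in 5 alternatives. These include its sum with Acot9, which by its construction follows the far more abundant Acot9. With palmitate in 3D, the 2 called members became 1 with only the 2 conditions compared, 0 with Rn45s as a covariate, and 0 to 2 with a library left out. With the pairs summed, Acot1 and Acot2 were a single gene, and it was called. The call of Acot1 was lost in 6 of the 19 alternatives and that of Acot2 in 5, with adjusted p-values up to 0.0980 and 0.0908 in edgeR's quasi-likelihood test. The cause was not tested.

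Over all genes, the 275 calls with palmitate became 617 without a filter, 77 with only the 2 conditions compared, 111 with the replicate block, 44 with Rn45s as a covariate, 880 with GC and length trends removed, and 71 to 1901 with a library left out, 1901 being without replicate 3 of 3D with palmitate. Scaling by library totals gave 106 higher and 121 lower in place of 173 and 102. The replicate numbers gave no sign of pairing the libraries. The r of deviations was -0.238 to 0.145 for the 9 pairs with the same number and -0.173 to 0.28 for the 18 with different numbers. The replicate block changed no call of a member. Values near 0 changed sign. For Acot8 against 2D it was 0.00089 with at least 10 counts in every library, 0.15 with the trends removed and -0.13 to 0.12 with a library left out. For Acot8 with palmitate, leaving out a library gave -0.13 to 0.13. For Acot9 with palmitate it was -0.015 with library totals, -0.013 without a filter, -0.0021 with at least 10 counts, -0.019 with the trends removed and -0.061 to 0.077 with a library left out. The palmitate difference in the share of Acot1 ranged from -1.33 to 3.95 points with a library left out. Leaving out a library left 2 in its condition. Counts of 1 to 7 per library limit Acot11.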
